A study of Homo sapiens with 6 samples.

Results

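The unfolded protein response and the integrated stress response were followed in SW480 cells through 32 named genes: 3 sensors, 4 transcription factors, 11 chaperones and co-chaperones, 3 disulfide isomerases, 6 genes of ER-associated degradation, 1 translocon subunit and 4 further ATF4 targets. They were chosen by name, as known genes of these pathways, out of 19225 symbols in the expression table. All 32 were found, and all 32 were among the 12884 genes that averaged 0.5 FPKM or more (reads scaled to gene length and to the library's total) that entered the tests. Values of single libraries are given in the order of replicates 1, 2 and 3. The member with the lowest level, *DERL3*, lay just above that limit in its mean, at 0.683 FPKM.

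SW480 is an established human colon cancer line, labelled as carrying mutant p53. The series held 3 control libraries and 3 libraries of cells transiently transfected to express MDM4, a negative regulator of p53 that is overexpressed in many tumours, from a plasmid. All 6 libraries came from the same cell line and were made from oligo(dT)-enriched mRNA. What plasmid the control cells had received is not given in the labels, and nothing says whether replicates came from separate cultures, so the p-values measure only the spread between these libraries. In bulk RNA, a change in the share of responding cells and a change of RNA per cell cannot be told apart. Replicates were numbered 1 to 3 in each group, and the design asked 2 questions of these genes: whether their levels differed between MDM4 and control cells, and whether replicate 3 of both groups differed from replicates 1 and 2.

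When unfolded proteins build up in the endoplasmic reticulum (ER), the membrane sensors IRE1 (gene *ERN1*), PERK (gene *EIF2AK3*) and ATF6 start 3 branches of signalling. IRE1 splices the mRNA of *XBP1*, ATF6 is cut to release a transcription factor, and both raise chaperones and the machinery that folds, moves or degrades secretory proteins. PERK phosphorylates eIF2alpha, as do the other kinases of the integrated stress response, which lowers general translation and favours that of ATF4, whose targets include *DDIT3*, *ATF3*, *TRIB3*, *CHAC1*, *ASNS* and *PPP1R15A*. Secretory epithelial cells and colon tumours are known to use these pathways. Splicing of *XBP1*, cleavage of ATF6 and translation of *ATF4* do not show in gene-level values.

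Promoters were searched for the known elements of these factors, since the group of genes with such elements is described again with the expression values. RefSeq promoters on GRCh38.p14, from 250 bases before to 50 bases after a start, were listed for 29 of the 32 genes, and not for *DERL1*, *DERL3* and *PDIA3*. The ER stress response element (ERSE: CCAAT, 9 bases of any kind, CCACG) was found on either strand in 7 of these 29 genes (24.1%), namely *XBP1*, *HSPA5*, *HSP90B1*, *CALR*, *CANX*, *CRELD2* and *PDIA6*, against 25 of 27305 genes with a listed promoter (0.0916%). The second form, ERSE-II (ATTGG, 1 base, CCACG), was found in *HYOU1*, *SDF2L1* and *HERPUD1*, that is in 3 of 29 genes (10.3%) against 19 of 27305 (0.0696%). ERSE was first described in promoters of ER chaperone genes, so its presence there is no independent observation. The element read by ATF4 with C/EBP factors (TGATG, 1 base, AA) lay in *ATF3*, *HERPUD1*, *CHAC1* and *ASNS*, 4 of 29 genes (13.8%) against 1217 of 27305 (4.46%). A core of the XBP1 element (TGACGTGG) was found only in *HYOU1* among the 29 genes (3.45%, against 0.927% of all genes with a promoter), where it overlaps 1 of the 2 ERSE-II matches. All 29 genes were among the tested genes, of which 10026 had a listed promoter. Over these 10026 the shares were 0.17% for ERSE and 0.14% for ERSE-II. They were 2.62% for the element of ATF4 with C/EBP factors and 1.22% for the core of the XBP1 element. A match is a run of letters and not evidence of binding. Only exact matches were searched, so a gene with a variant form of an element counts as having no match.

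The ERSE matches of *XBP1* and of the chaperones *HSPA5*, *HSP90B1* and *CALR* are shown with 10 bases on each side, 5′ to 3′ on the strand named, with the whole element in capitals.
HSPA5, chr9:125241381-125241419, minus strand: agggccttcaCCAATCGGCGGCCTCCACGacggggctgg
XBP1, chr22:28800593-28800631, minus strand: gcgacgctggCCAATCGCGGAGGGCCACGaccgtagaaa
HSP90B1, chr12:103930206-103930244, plus strand: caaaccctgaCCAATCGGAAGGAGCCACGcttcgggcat
CALR, chr19:12938374-12938412, minus strand: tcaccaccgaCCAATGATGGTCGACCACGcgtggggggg
The element ended 48 bases before the start of *HSPA5* and 34 bases before that of *XBP1*. *XBP1* has a further listed promoter without a match, and so have *CANX* and *PDIA6*. *HSP90B1* held a further ERSE match 71 bases before its start, on the other strand.

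ERSE-II matches are shown in the same way, with the element in capitals, for the 3 genes that held one, with both matches of *HYOU1*.
HERPUD1, chr16:56932015-56932045, plus strand: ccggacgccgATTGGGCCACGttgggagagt
SDF2L1, chr22:21642104-21642134, minus strand: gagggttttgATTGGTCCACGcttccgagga
HYOU1, farther match, chr11:119057370-119057400, plus strand: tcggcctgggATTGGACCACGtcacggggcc
HYOU1, nearer match, chr11:119057264-119057294, plus strand: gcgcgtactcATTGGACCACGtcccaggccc
The matches of *HYOU1* ended 175 and 69 bases before its start, and the core of the XBP1 element overlaps the farther one.
The composite element is given for *ATF3*, *CHAC1* and *ASNS*, the ATF4 targets that hold it among those with values given in every library.
ATF3, chr1:212565206-212565233, plus strand: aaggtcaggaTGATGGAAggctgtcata
CHAC1, chr15:40953252-40953279, minus strand: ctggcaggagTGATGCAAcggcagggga
ASNS, chr7:97872459-97872486, minus strand: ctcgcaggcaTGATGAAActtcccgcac
*ATF3* has a second listed promoter without a match, and so has *ASNS*.

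The 250 bases before the start of *HSPA5* (chr9:125241344-125241593, minus strand), a well-studied promoter of the unfolded protein response, are given with the ERSE match in capitals.
HSPA5 upstream: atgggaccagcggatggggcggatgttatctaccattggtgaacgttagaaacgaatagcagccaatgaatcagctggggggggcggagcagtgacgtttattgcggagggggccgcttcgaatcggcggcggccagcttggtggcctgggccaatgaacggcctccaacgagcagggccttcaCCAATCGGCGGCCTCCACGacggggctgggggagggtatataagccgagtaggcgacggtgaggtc
The same stretch before the listed *ATF3* start whose promoter held the composite element (chr1:212565157-212565406, plus strand) is given too. *ATF3* was the member with the largest difference between the groups. Only listed starts were searched, so an element at any other start of *ATF3* would be missed.
ATF3 upstream: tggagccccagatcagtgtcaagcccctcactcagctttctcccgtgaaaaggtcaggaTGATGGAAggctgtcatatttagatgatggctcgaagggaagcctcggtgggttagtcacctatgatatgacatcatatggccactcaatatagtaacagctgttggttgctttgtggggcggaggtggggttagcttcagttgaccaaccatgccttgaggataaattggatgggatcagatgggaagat

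Reads on genes numbered 32842267 to 44452444 per library. *MDM4* itself, the check of the labels, measured 6.35, 7.09 and 5.13 FPKM in the control libraries against 188, 185 and 56.3 in the MDM4 libraries, so that every MDM4 library lay above every control library and MDM4 replicate 3 carried the least of the transfected gene. Its log2 difference was 4.33 ± 0.43 (SE), with an adjusted p of 0.161 in limma without a block and 4.77e-05 with the replicate number as a block. Of 6 colon epithelial markers, *EPCAM*, *KRT8* and *KRT18* were high and *KRT20* was at or under 0.591 FPKM. *CDX2* and *VIL1* averaged 12.1 and 2.91 FPKM, and the summed level of the 6 was 3207 to 3816 FPKM. All 5 tested markers were lower in the MDM4 libraries, with a median log2 difference of -0.11, and 0 were called (limma), beside 0% of all tested genes. Markers of other cells were low in both groups: the summed level was 0.422 to 0.928 FPKM for 3 leukocyte genes, 1.61 to 3.8 FPKM for 3 fibroblast genes and 0.316 to 0.633 FPKM for 2 endothelial genes, and *PTPRC*, *COL1A2*, *DCN* and *PECAM1* were each at 0 in at least 3 libraries. Summed over 12 interferon-stimulated genes, the control libraries held 605, 634 and 197 FPKM against 177, 184 and 186 in the MDM4 libraries. For 9 heat shock genes, cytosolic ones and the mitochondrial *HSPD1* and *HSPE1*, the sum was between 2948 and 3462 FPKM. None of them was called between the groups, beside 0% of all tested genes.

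The 32 genes together made up 2634 ± 15.9 FPKM in the control and 2619 ± 27.6 FPKM in the MDM4 libraries (SD, n = 3 each). Levels spanned a wide range. ER lectins and chaperones stood highest, with *CALR* (calreticulin) at a mean of 447 FPKM over the 6 libraries, *HSP90B1* (the ER HSP90 paralog GRP94) at 349, *CANX* (calnexin) at 241 and *HSPA5* (the chaperone BiP, which also holds the sensors inactive) at 229. *ATF4* mRNA came next at 185 FPKM, followed by *PDIA3* at 149 and *ASNS*, the asparagine synthetase, at 127 FPKM. Of the other folding genes, *PDIA4* was at 121, *PDIA6* at 111, *DNAJB11* at 73.8, *HYOU1* at 73.7, *MANF* at 67.9, *SDF2L1* at 39.4, *CRELD2* at 22.1 and *DNAJC3* at 14 FPKM. The translocon gene *SEC61B* was at 99.9 FPKM, and the degradation genes were at 33.6 (*HERPUD1*), 31.7 (*DERL1*), 25.1 (*SEL1L*), 16.7 (*SYVN1*) and 12.3 FPKM (*EDEM1*). Among factors and ATF4 targets, *XBP1* was at 37.5, *PPP1R15A* at 34.8, *TRIB3* at 27.8 and *DDIT3* at 18 FPKM. In all, 9 genes lay above 100 FPKM, 16 between 10 and 100 FPKM and 7 below 10 FPKM. The low group held the 3 sensors (*ERN1* at 3.38, *ATF6* at 6.95 and *EIF2AK3* at 7.78 FPKM), *ATF3* at 7.32, *CHAC1* at 3.68, *DNAJB9* at 8.95 and *DERL3* at 0.683 FPKM.

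**Figure D1:**
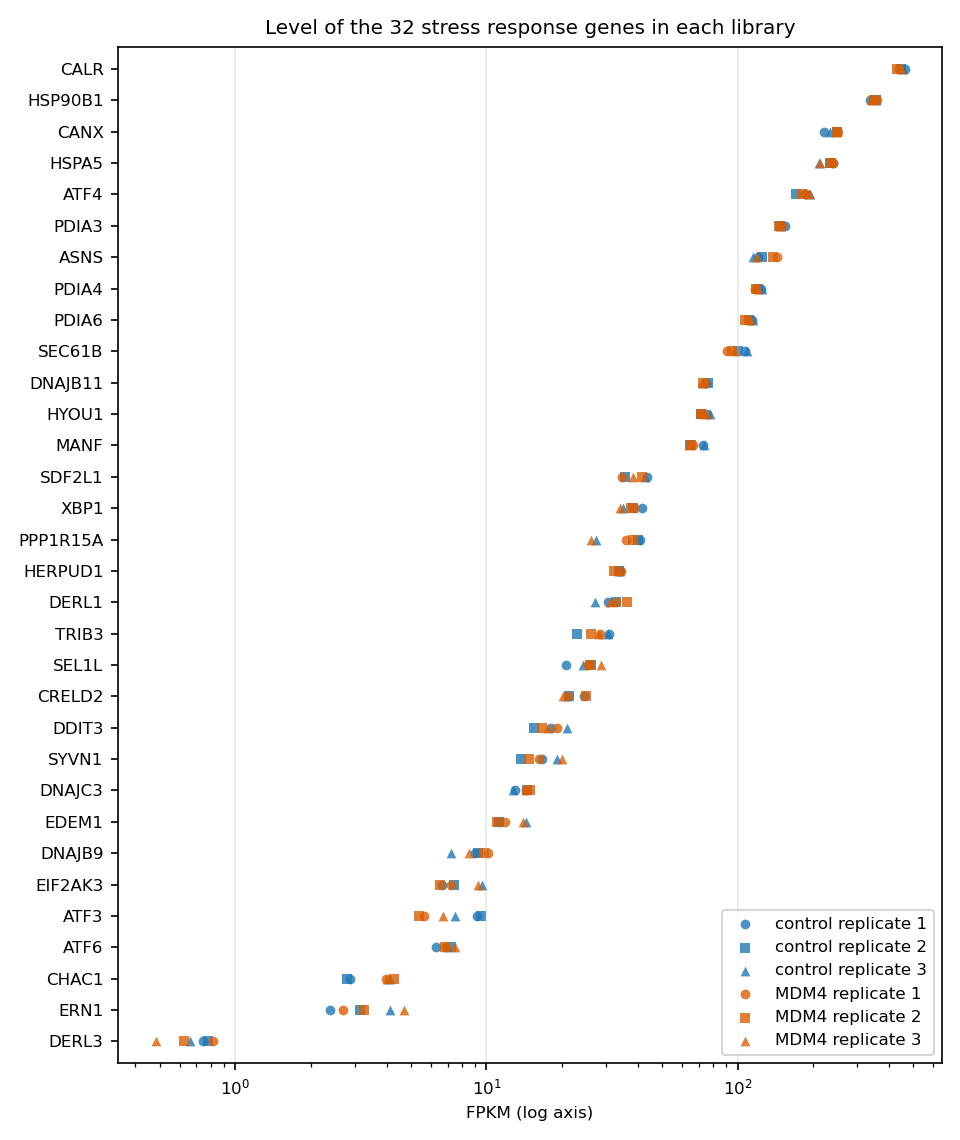
Level of each of the 32 genes (rows, ordered by mean) in FPKM on a log axis, with 1 point per library, colour for the group and shape for the replicate number. *CALR* stands highest at a mean of 447 FPKM and *DERL3* lowest at 0.683 FPKM, and the 6 points of most genes lie close together.

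Most of these genes varied little among the 6 libraries. The coefficient of variation over the libraries was below 10% in 20 of 32 genes, with a median of 8.09% against 11.6% over all tested genes. The 32 genes were not matched to all tested genes for level. This contrast therefore does not show that the pathway varied unusually little. It was smallest for *PDIA3* (2.01%), *DNAJB11* (2.15%), *HERPUD1* (2.32%), *CALR* (2.4%), *PDIA4* (2.49%) and *HSP90B1* (2.54%). These are an ER disulfide isomerase of glycoproteins, a co-chaperone of BiP, a scaffold of ER-associated degradation, a lectin chaperone, a further disulfide isomerase and GRP94. The widest spread was that of *ERN1* (26%), *ATF3* (23.7%), *PPP1R15A* (18.8%), *CHAC1* (18.2%) and *DERL3* (18%). Of these, *ERN1*, *ATF3*, *CHAC1* and *DERL3* were among the members below 10 FPKM. *DERL3* rested on only 39 to 82 reads per library and *CHAC1* on 177 to 295, whereas *ERN1* had 391 to 664 and *CANX* 40087 to 48622.

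Whether MDM4 altered these genes was asked first. None of the 32 genes was called between MDM4 and control cells (limma on log2(FPKM + 0.1), adjusted p of 0.9999 for each), and 0% of the 12884 tested genes were called. At an unadjusted p under 0.05 there were 2 of 32 genes, *ATF3* and *SEC61B*, both lower in the MDM4 libraries, and 222 of the 12884 tested genes. The median log2 difference of the 32 genes was -0.02, beside -0.01 over all tested genes, and 14 genes were above and 18 below 0. The median size of the difference, without its sign, was 0.05 for the 32 genes and 0.08 for all tested genes, sets that were not matched for level. For 27 of the 32 genes the 95% confidence interval of the log2 difference lay between -0.5 and 0.5.

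With the replicate number as a block, 0 of 32 genes and 0.0155% of the tested genes were called, and 6 of 32 genes (*ATF3*, *SEC61B*, *ASNS*, *CHAC1*, *DERL1* and *SEL1L*) and 1624 tested genes had an unadjusted p under 0.05. Over replicates 1 and 2 alone, with 2 libraries per group, limma called 1 of 32 genes, *ATF3*, and 0.536% of the tested genes. Fits on the recovered reads with voom gave the same counts of members, 0 with the block and 1 over replicates 1 and 2. The MDM4 and control values did not overlap in 3 of 32 genes, all lower in the MDM4 libraries, beside 6.85% of the tested genes. In 16 of 32 genes the difference had the same sign in all 3 same-numbered pairs (7 higher, 9 lower), beside 35.2% of the tested genes.

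**Figure D2:**
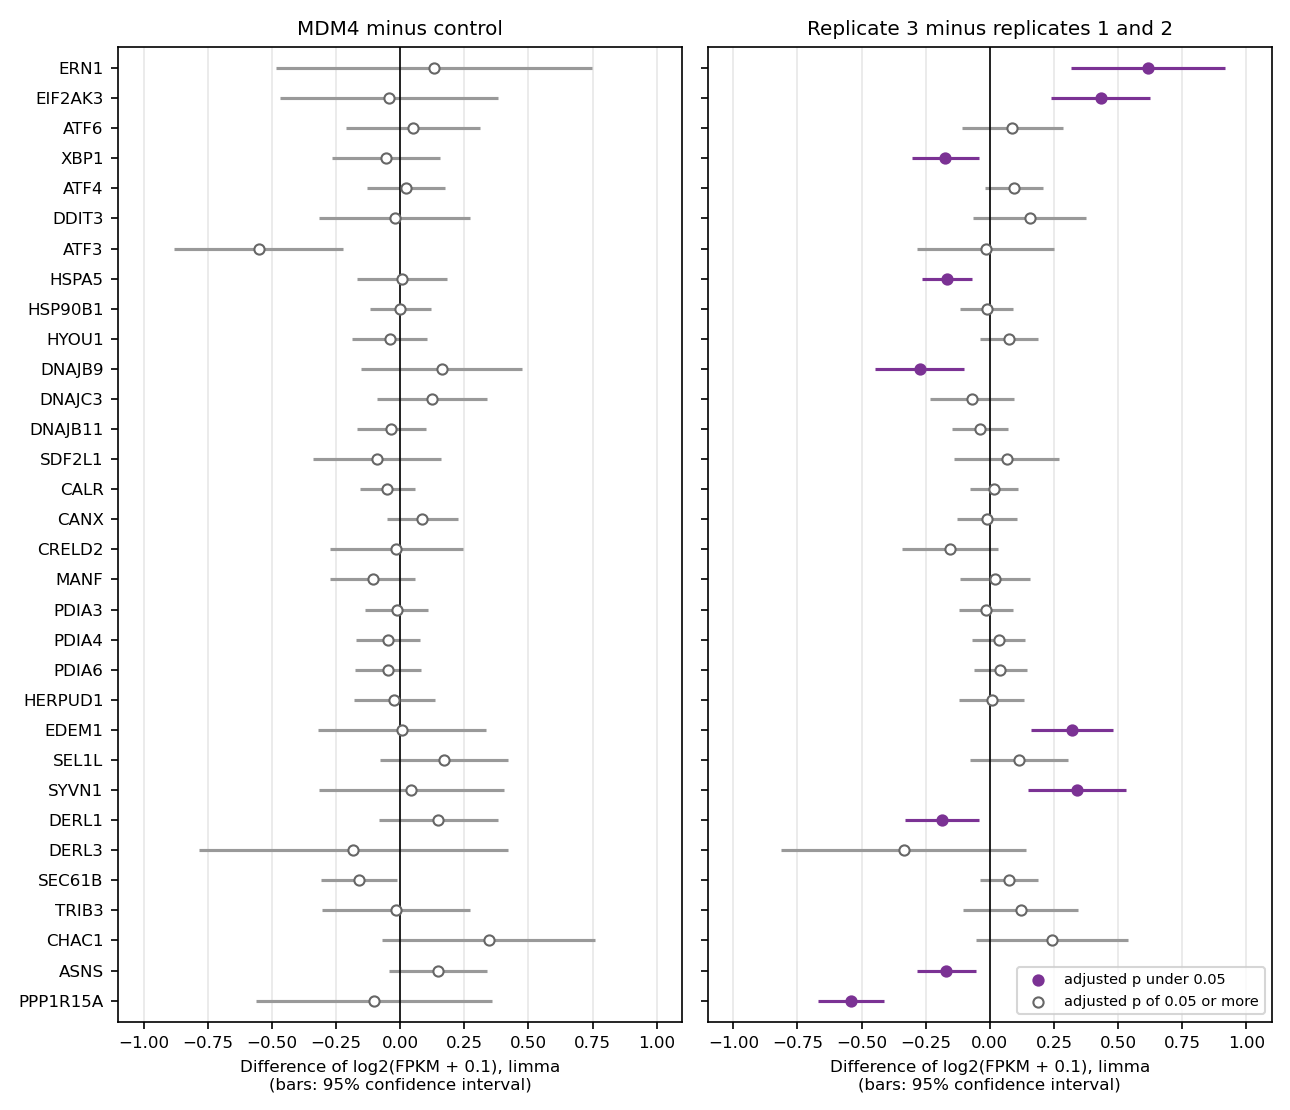
Difference of log2(FPKM + 0.1) for each of the 32 genes (points) with its 95% confidence interval (bars), for MDM4 minus control (left) and for replicate 3 minus replicates 1 and 2 (right). Filled points passed an adjusted p of 0.05 in limma, which was 0 of 32 on the left and 10 of 32 on the right.

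Sensors and their transcription factors are described first. *ERN1*, which encodes the nuclease and kinase IRE1, differed by 0.13 ± 0.26 (SE, log2), *EIF2AK3* by -0.04 ± 0.18 and *ATF6* by 0.05 ± 0.11, and none of them passed the test. *XBP1* mRNA, the substrate of IRE1, differed by -0.06 ± 0.09. *ATF4* was at 184 ± 11.7 FPKM in the control and 186 ± 6.08 FPKM in the MDM4 libraries (SD, n = 3 each), a log2 difference of 0.02 with a 95% interval of -0.13 to 0.17. *DDIT3*, which encodes the pro-apoptotic factor CHOP, measured 18, 15.4 and 21 FPKM in the control libraries against 19.1, 16.7 and 17.6 in the MDM4 libraries. The 2 groups overlapped, and the difference was -0.02 ± 0.13.

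*ATF3*, a stress-induced repressor and activator of the ATF/CREB family, showed the largest difference of the 32 genes. It measured 9.17, 9.49 and 7.51 FPKM in the control libraries against 5.64, 5.39 and 6.7 in the MDM4 libraries, from 389 to 852 reads per library. All 3 control libraries lay above all 3 MDM4 libraries, and between the groups the 2 replicate 3 libraries stood nearest to each other. The log2 difference was -0.55 ± 0.14 (SE), with a 95% interval of -0.88 to -0.22, an adjusted p of 0.9999 without a block and of 0.219 with the block in limma. Over replicates 1 and 2 alone *ATF3* fell by 0.75 on the log2 scale, with an adjusted p of 0.00636 in limma and of 0.0107 with voom on the recovered reads. In same-numbered pairs the difference was -0.69, -0.8 and -0.16 for replicates 1 to 3. The interferon-stimulated genes were high in the same 2 control libraries in which *ATF3* was highest, and their part in the *ATF3* difference was not tested.

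*CHAC1*, a glutathione-degrading enzyme downstream of ATF4, had the largest positive difference. It measured 2.87, 2.79 and 4.11 FPKM in the control libraries against 3.98, 4.3 and 4.02 in the MDM4 libraries. Control replicates 1 and 2 were low, whereas control replicate 3 lay within the MDM4 values, so the groups overlapped. The log2 difference of 0.34 ± 0.18 (SE) had a 95% interval of -0.07 to 0.76 and did not pass the test, nor did the 0.53 ± 0.14 over replicates 1 and 2 (adjusted p of 0.201, limma). In control cells *CHAC1* and *ATF3* thus stood apart in opposite directions in the same replicates 1 and 2.

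The other ATF4 targets gave smaller differences. *ASNS* measured 121, 125 and 115 FPKM in the control libraries against 143, 138 and 119 in the MDM4 libraries. Each MDM4 library lay above the control library of the same number, while the lowest MDM4 value was below the highest control values, and the difference was 0.15 ± 0.08 (SE, log2). *TRIB3*, a pseudokinase that curbs ATF4 and AKT signalling, was at 28.1 ± 4.39 FPKM in control and 27.5 ± 1.3 FPKM in MDM4 libraries (SD, n = 3 each). *PPP1R15A*, the subunit GADD34 that directs a phosphatase to eIF2alpha, differed by -0.1 ± 0.2 (SE, log2).

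Chaperones and folding enzymes gave small differences between the groups. Over the 11 chaperones and co-chaperones the differences ran from -0.11 (*MANF*, a secreted ER protein) to 0.16 (*DNAJB9*, a co-chaperone of BiP), with 5 above and 6 below 0 and 0 called. *HSPA5* measured 240, 234 and 211 FPKM in the control libraries against 240, 235 and 212 in the MDM4 libraries. The same-numbered values of *HSPA5* were nearly equal, and its difference was 0.01 with a 95% interval of -0.17 to 0.18. *HSP90B1* differed by 0.0007 with an interval of -0.12 to 0.12, and *HYOU1*, an ER member of the HSP70 family, by -0.04 with an interval of -0.19 to 0.11. *CALR* did not overlap between the groups, at 462, 449 and 454 FPKM in control and 439, 432 and 447 FPKM in MDM4 libraries, but the difference was only -0.05 ± 0.05 (SE, log2) and did not pass the test. The differences were 0.09 for *CANX*, 0.12 for *DNAJC3*, a co-chaperone that inhibits eIF2alpha kinases, -0.03 for *DNAJB11*, -0.09 for *SDF2L1* and -0.01 for *CRELD2*. Among the disulfide isomerases, *PDIA3*, *PDIA4* and *PDIA6* differed by -0.01, -0.05 and -0.05.

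*SEC61B*, a subunit of the channel through which secretory proteins enter the ER, measured 107, 100 and 109 FPKM in the control libraries against 90.7, 94.7 and 97.5 in the MDM4 libraries. The groups did not overlap, with the highest MDM4 value under the lowest control value. The log2 difference was -0.16 ± 0.06 (SE), with an unadjusted p of 0.0358 and an adjusted p of 0.9999 in limma. Of the 6 genes of ER-associated degradation, none was called, and the differences ran from -0.18 to 0.17. *SEL1L* and *SYVN1*, the adaptor and the ubiquitin ligase of the central degradation complex, differed by 0.17 and 0.04, *DERL1* by 0.15, *EDEM1*, a lectin that hands over misfolded glycoproteins, by 0.01, and *HERPUD1* by -0.02. *DERL3*, a derlin of the degradation channel, measured 0.746, 0.777 and 0.658 FPKM in the control libraries against 0.816, 0.622 and 0.481 in the MDM4 libraries. The groups overlapped, and its 95% interval was wide, from -0.79 to 0.42.

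The second question was how replicate 3 of both groups stood against replicates 1 and 2. Of the 32 genes, 10 passed the test (limma with a group term, adjusted p under 0.05), beside 44.1% of all tested genes. Of these, 4 were higher in replicate 3 (*ERN1*, *EIF2AK3*, *SYVN1* and *EDEM1*), where 29.6% of tested genes were called higher, and 6 were lower (*PPP1R15A*, *DNAJB9*, *DERL1*, *XBP1*, *ASNS* and *HSPA5*), where 14.6% were called lower. The called genes made up 31.2% of the 32. Over all 32 genes the median log2 difference was 0.02, beside 0.09 over all tested genes, and the median size without sign was 0.1 beside 0.21. Here too the sets were not matched for level. Replicate 3 lay outside replicates 1 and 2 in the same direction in both groups in 19 of 32 genes (9 higher, 10 lower), beside 66.7% of tested genes.

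Scaling moved the balance of these calls but no called direction. With median ratio scaling the median of all tested genes moved by -0.1 (log2), and the share of higher calls among all calls went from 67% to 45.4%. Of the 32 genes, 4 were then called higher and 8 lower, and with quantile normalization, which gave 51.2% higher calls, 6 were called higher and 6 lower. All 10 genes kept their sign under each of the alternatives, and relative to the median of all tested genes their differences ran from -0.63 (*PPP1R15A*) to 0.52 (*ERN1*).

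Of the sensors, *ERN1* and *EIF2AK3* rose in replicate 3. *ERN1* measured 2.38, 3.13 and 4.12 FPKM in the control libraries against 2.68, 3.24 and 4.7 in the MDM4 libraries. Replicate 3 was highest in both groups, and the log2 difference was 0.62 ± 0.14 (SE, adjusted p of 0.00447, limma). *EIF2AK3* measured 6.68, 7.45 and 9.59 FPKM in the control libraries against 7.21, 6.52 and 9.25 in the MDM4 libraries. Both replicate 3 libraries lay above the other 4, by 0.43 ± 0.09 (SE, log2; adjusted p of 0.00275, limma). For *ATF6* the difference of 0.09 ± 0.09 did not pass the test.

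Effectors of the same pathways did not move as a set in replicate 3. The degradation genes *EDEM1* and *SYVN1* were called higher, as given below. *DDIT3*, *CHAC1* and *TRIB3* had positive differences that did not pass the test. *PPP1R15A*, *XBP1* and *DNAJB9* were among the genes that fell. *PPP1R15A* measured 41, 40.1 and 27.2 FPKM in the control libraries against 36, 38.4 and 26.1 in the MDM4 libraries. Both replicate 3 libraries lay far below the other 4, and *PPP1R15A* fell by 0.54 on the log2 scale (SE 0.06, adjusted p of 7.7e-05, limma), about the same in control (-0.57) and MDM4 cells (-0.51). *XBP1* measured 41.6, 38.2 and 35 FPKM in the control libraries against 38.6, 37.6 and 34.1 in the MDM4 libraries, lowest in replicate 3 of each group, and fell by 0.17 (SE 0.06, adjusted p of 0.0347, limma). *DNAJB9*, a target of the IRE1 and XBP1 branch, measured 8.96, 9.24 and 7.19 FPKM in the control libraries against 10.1, 9.74 and 8.53 in the MDM4 libraries. It too was lowest in replicate 3 of each group and fell by 0.27 (SE 0.08, adjusted p of 0.0157, limma).

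**Figure D3:**
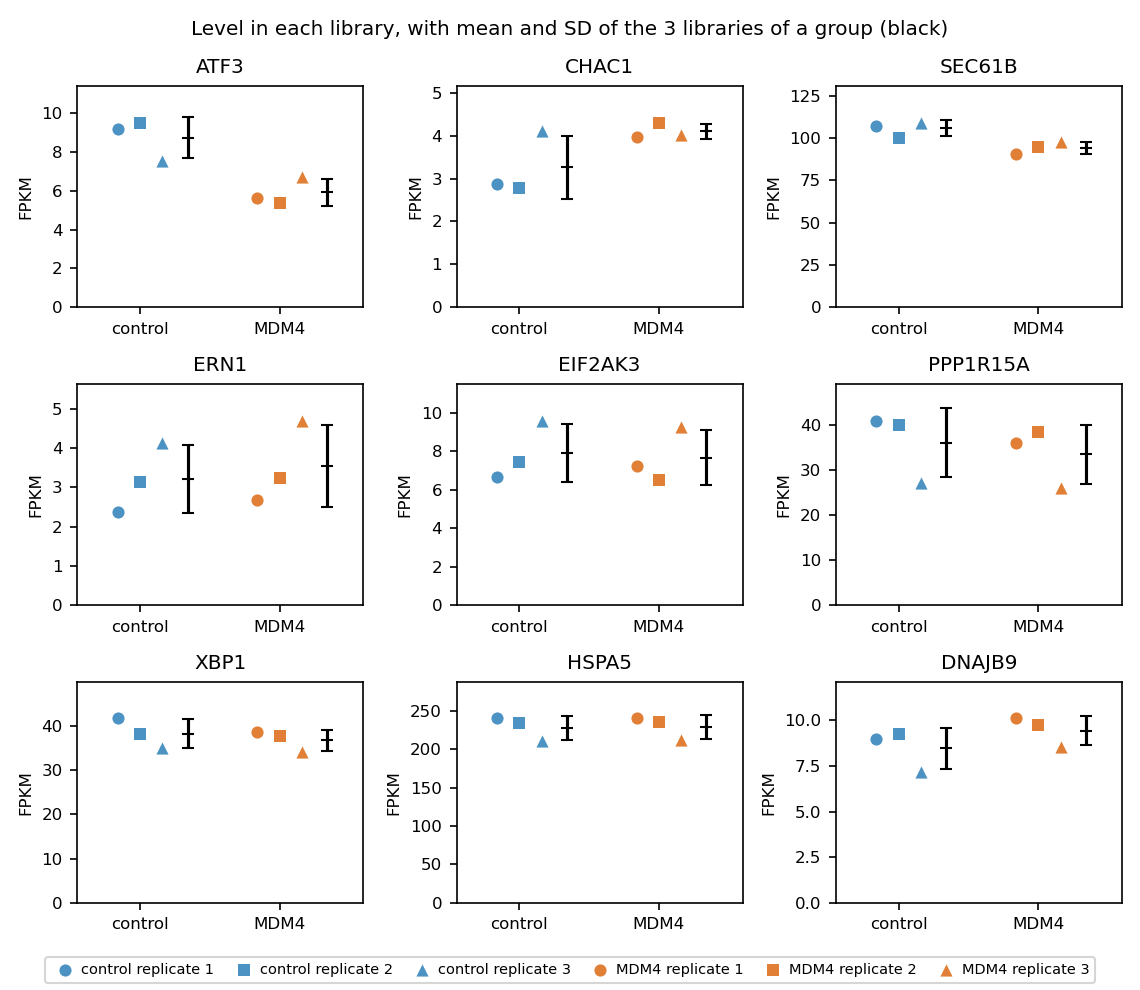
FPKM of 9 of the genes in each library (points, colour for the group and shape for the replicate number), with the mean and SD of the 3 libraries of a group in black and axes that start at 0. *ATF3* and *SEC61B* separate control from MDM4 libraries, and in *ERN1*, *EIF2AK3*, *PPP1R15A*, *XBP1*, *HSPA5* and *DNAJB9* replicate 3 (triangles) lies outside replicates 1 and 2 in both groups.

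*HSPA5* fell by 0.17 in replicate 3 (SE 0.04, log2, adjusted p of 0.0104, limma), with both replicate 3 libraries, at 211 and 212 FPKM, below the other 4. The other abundant chaperones did not pass the test, with differences of -0.01 for *HSP90B1*, 0.02 for *CALR*, -0.01 for *CANX* and 0.07 for *HYOU1*. *ASNS* fell by 0.17 (SE 0.05, adjusted p of 0.0223, limma), and its values of 115 and 119 FPKM in replicate 3 were the lowest of the 6. *ATF4* itself was at 194 and 192 FPKM in replicate 3 and at 171 to 187 FPKM in the other 4 libraries, a difference of 0.09 ± 0.05 that did not pass the test. For *DDIT3*, *CHAC1* and *TRIB3* the differences were 0.15 ± 0.1, 0.24 ± 0.13 and 0.12 ± 0.1 (SE, log2), none past the test. The remaining chaperones, the disulfide isomerases, *SEC61B* and *ATF3* did not pass the test either, with differences from -0.16 (*CRELD2*) to 0.08 (*SEC61B*).

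Within ER-associated degradation the called genes went both ways. *EDEM1* measured 11.2, 11.2 and 14.4 FPKM in the control libraries against 11.9, 11 and 14 in the MDM4 libraries, and rose by 0.32 ± 0.07 (SE, log2; adjusted p of 0.00519, limma). *SYVN1* measured 16.7, 13.7 and 19 FPKM in the control libraries against 16.2, 14.8 and 19.9 in the MDM4 libraries, and rose by 0.34 ± 0.09 (adjusted p of 0.00926, limma). In both genes the replicate 3 libraries lay above the other 4. *DERL1*, a further derlin, measured 30.5, 32.8 and 27 FPKM in the control libraries against 32.8, 36.1 and 31.1 in the MDM4 libraries, and fell by 0.19 (SE 0.07, adjusted p of 0.0389, limma). It was lowest in replicate 3 of each group, but MDM4 replicate 3 lay above control replicate 1. *SEL1L*, *HERPUD1* and *DERL3* did not pass the test, at 0.11, 0.01 and -0.34. The transcripts behind FPKM were 3050 to 6153 bases long in the 4 genes that rose and 1807 to 3970 bases long in the 6 that fell, while over all tested genes the Spearman correlation of this length with the replicate 3 difference was 0.08 (12884 genes, a description), and the part of length was not tested.

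The replicate 3 calls rested on few libraries. Without MDM4 replicate 3 the test called 2 of the 32 genes (*PPP1R15A* and *CHAC1*) and without control replicate 3 it called 3 (*PPP1R15A*, *ASNS* and *ERN1*). *PPP1R15A* passed in each of the 16 alternative fits and *ERN1* in 15, whereas *DERL1* and *ASNS* passed in 10 each. Replicate 3 also differed in the transfected gene, MDM4, which fell by 0.38 in the control and by 1.73 in the MDM4 cells on the log2 scale against replicates 1 and 2 (adjusted p of 0.00296 over both groups, limma with a group term). In the control cells it also differed in the sum of the interferon-stimulated genes. Of these, *OAS2* was lower in replicate 3 in both groups, by -2.32 in the control and -1.49 in the MDM4 cells (log2). Of the markers, *COL1A1* (fibroblasts) was at 3.71 and 3.8 FPKM in replicate 3 and at 1.6 to 2.33 FPKM in the other 4 libraries, and was called higher by 0.92 (log2, adjusted p of 0.000865, limma). *COL1A2* and *DCN* were at or near 0 in all 6 libraries. *VWF* (endothelium), too low to be tested, was at 0.616 and 0.633 FPKM in replicate 3 and at 0.316 to 0.438 FPKM in the others, while *PECAM1* was at 0 in both replicate 3 libraries. The summed leukocyte genes were at 0.928 and 0.847 FPKM in replicate 3 and at 0.422 to 0.732 FPKM in the others. Of the epithelial markers, *VIL1* was called higher by 0.5 and *KRT8* fell by 0.15 (log2, adjusted p of 0.00811 and 0.0136, limma). The part of MDM4, the interferon-stimulated genes and these markers in the differences of the 32 genes was not tested.

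Whether the MDM4 difference itself differed in replicate 3 was tested with an interaction term, which rests on 1 pair of libraries. None of the 32 genes was called (limma), beside 0.194% of the tested genes, and 2 had an unadjusted p under 0.05, beside 293 of the 12884 tested genes. These were *ATF3*, with 0.58 ± 0.19 (SE, log2; unadjusted p of 0.00996 and adjusted p of 0.9998, limma), and *CHAC1*, with -0.56 ± 0.23 (unadjusted p of 0.0346 and adjusted p of 0.9998, limma). The third largest was *DDIT3* at -0.36 ± 0.18, which was 0.08 and 0.11 higher in MDM4 replicates 1 and 2 than in their controls and 0.26 lower in replicate 3 on the log2 scale.

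Genes with an exact ERSE or ERSE-II match were compared with the other genes that had a listed promoter, as a description. Between MDM4 and control, the 10 genes with a match differed by -0.09 to 0.09 (log2), with a median of -0.03, and the 19 without one by -0.55 to 0.34, with a median of 0.01. In replicate 3, 2 of the 10 genes with a match (*XBP1* and *HSPA5*, both lower) and 7 of the 19 without one were called, beside 44.1% of all tested genes. Of the 4 genes with the composite element, *ATF3* and *CHAC1* had the largest negative and positive MDM4 differences, while *ASNS* and *HERPUD1* differed by 0.15 and -0.02.

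Further genes of the same pathways were taken from 3 lists. None of their genes was called between MDM4 and control (limma): 0 of 32 tested of 34 genes of the ATF4 and amino acid response, 0 of 13 eIF2 kinases, phosphatases and eIF2B subunits, and 0 of 50 tested of 51 secretory genes of the ATF6 and XBP1 branches. In this fit 0% of the 12884 tested genes were called, so the same held for every gene, *MDM4* included. At an unadjusted p under 0.05 there were 2, 0 and 0 genes, beside 222 of the 12884 tested genes. The median log2 differences were 0.04, -0.03 and 0.01, beside -0.01 over all tested genes. *SLC7A11*, the cystine transporter, had the largest difference of the ATF4 list at 0.37 ± 0.12 (SE), and *EIF2AK2*, the interferon-inducible kinase PKR, that of the eIF2 list at -0.25 ± 0.22, both chosen after their values were seen. *EIF2AK2* measured 23.4, 33.2 and 17.4 FPKM in the control libraries against 19.8, 18.1 and 22.3 in the MDM4 libraries, so that control replicates 1 and 2 were above MDM4 replicates 1 and 2 and control replicate 3 was below MDM4 replicate 3. Over replicates 1 and 2 alone its difference was -0.55 ± 0.14 (SE, log2; unadjusted p of 0.00181 and adjusted p of 0.182, limma). The interaction term was 0.91, with an adjusted p of 0.577 in limma. In their sum the interferon-stimulated genes were also high in control replicates 1 and 2 alone. Of them, *OAS2* measured 6.27, 5.39 and 1.09 FPKM in the control libraries and 2.57, 3.22 and 0.96 in the MDM4 libraries. The part of the interferon-stimulated genes in the *EIF2AK2* difference was not tested.

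In replicate 3, 16 of 32 tested genes of the ATF4 and amino acid list were called higher and 5 lower, with a median of 0.18, beside 29.6% called higher, 14.6% called lower and a median of 0.09 over all tested genes. *INHBE*, an inhibin subunit, had the largest difference, at 1.56 on the log2 scale. It was at 0.341 to 0.445 FPKM in replicates 1 and 2, with a mean of 0.393 FPKM, and at 1.17 and 1.56 FPKM in replicate 3. *INHBE* thus reached the limit of 0.5 FPKM and entered the test only through replicate 3, and its difference is given as a value and not as a result. Over the 31 genes of the list that reached 0.5 FPKM on both sides, 15 were called higher and 5 lower, with a median of 0.17. *KLHL24* rose by 1.28. *JDP2* rose by 0.9 and *ADM2* by 0.79, while *STC2*, a secreted glycoprotein hormone, fell by 1.08 and *ATF5*, a factor related to ATF4, fell by 0.85 on the log2 scale. *STC2* measured 125, 126 and 59.6 FPKM in the control libraries against 142, 124 and 62.3 in the MDM4 libraries, so that replicate 3 lay far below the other 4 libraries. Of the eIF2 list, 3 of 13 genes were called, beside 44.1% of all tested genes: *EIF2AK1* (0.25) and *EIF2AK4* (0.18), kinases that sense heme and amino acid shortage, were called higher and *EIF2S1* (-0.22), which encodes eIF2alpha, lower.

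Of the secretory list, 11 of 50 tested genes were called higher and 6 lower in replicate 3, beside 29.6% and 14.6% of all tested genes, and the median was 0.09 both for the list and for all tested genes. With median ratio scaling these counts turned to 7 higher and 14 lower, and those of the ATF4 list to 12 higher and 7 lower. The largest were *CREB3L1* (1.15) and *CREB3L2* (0.46), ER-anchored transcription factors, *ERO1B* (0.67), an oxidase of disulfide isomerases, *WFS1* (0.65), *EDEM3* (0.37) and *HSPA13* (0.36), all higher.

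**Figure D4:**
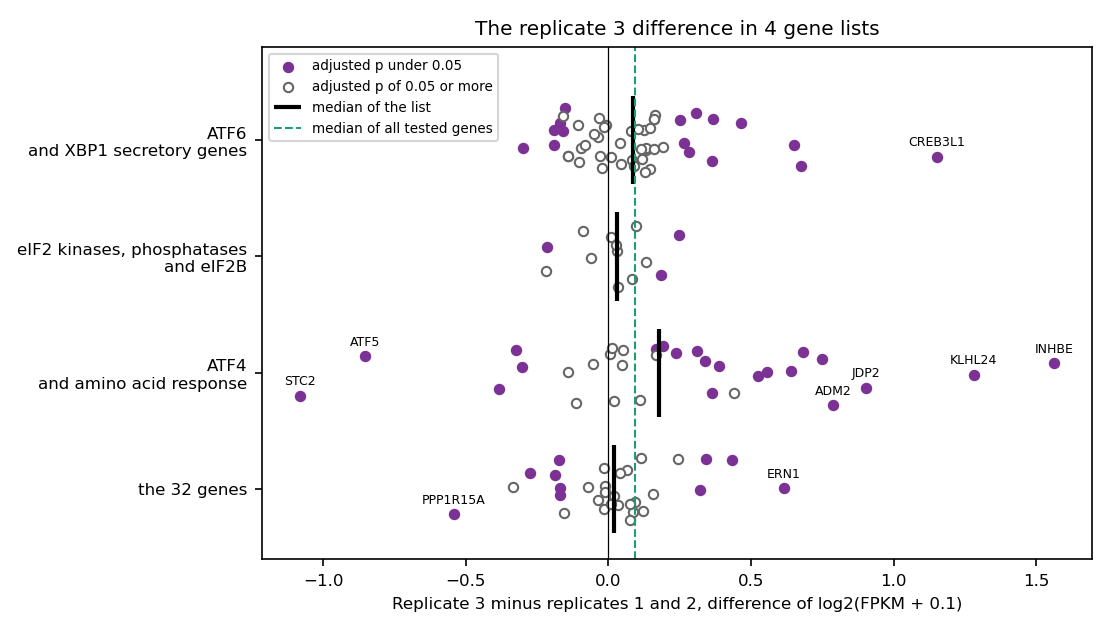
Replicate 3 minus replicates 1 and 2, as a difference of log2(FPKM + 0.1), for the 32 genes and for 3 lists of further pathway genes (1 point per tested gene, spread vertically for clarity, filled where the adjusted p was under 0.05 in limma). Black lines are list medians, at 0.02 for the 32 genes and 0.18 for the ATF4 and amino acid list, and the dashed line is the median of all tested genes at 0.09.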

How the data were processed

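RNA sequencing of 6 libraries was used, and groups and replicate numbers came from the labels. The authors deposited FPKM values by symbol (19225 rows, 2036 of them at 0 throughout). The aligner, genome build, gene annotation and strand setting are not given in the sources used here. Columns carry a letter and a number, and G was read as control and M as the second group, which the labels call "exercised". Values were whole multiples of 1 step per gene and library, from which reads were recovered for 17189 of 17189 genes above 0 (100%, within 0.02 reads), giving 32842267 to 44452444 reads per library. With this depth the members with few reads are the least precise in counting, though their SE between groups was not always the largest. How far reads are PCR copies is unknown.

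Values were taken as log2(FPKM + 0.1), and the 12884 genes averaging 0.5 FPKM or more entered linear models in limma 3.58.1 (R 4.3.3, eBayes with a trend). P-values were adjusted over all of these genes by the Benjamini-Hochberg method, and a gene was called at an adjusted p under 0.05. A pseudocount understates changes of low genes. Fits were for MDM4 against control, for replicate 3 against replicates 1 and 2 with a group term, and for their interaction. The scripts were tested on simulated data. Tables and plots used Python 3.11.15, numpy 2.4.6, pandas 2.3.3, scipy 1.17.1 and matplotlib 3.10.9. Promoters came from RefSeq on GRCh38.p14.

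Deviations from the group means, across 12884 genes, correlated between same-numbered libraries at 0.46, 0.45 and 0.78 for replicates 1 to 3. By a limit of 0.1 the labels' numbers were taken to pair the libraries. Pairing replicate 1 with replicate 2 of the other group gave 0.46 and 0.44, and replicate 3 went against both (-0.62 to -0.56). These values set replicate 3 apart but do not tell replicate 1 from replicate 2. The pairing of replicates 1 and 2 by number therefore rests on the labels alone.

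The 32 genes and all lists were chosen with earlier results of these data known. All members get a level, and those called in a comparison or among the 3 with the largest differences get values in every library. CALR and SEC61B were added for not overlapping. Of further pathway genes, called ones are named, at most 6 per list. Alternatives were other pseudocounts, filters and scalings (TPM, median ratio, quantile), eBayes without trend, each library left out, a fold threshold, voom on recovered reads, the replicate block, replicates 1 and 2 alone and no group term. The fits that joined voom with the block or with replicates 1 and 2 were chosen after seeing the data.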

Additional observations from a re-analysis of the deposited data

How the results depend on the processing

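No member of the 32 genes was called between MDM4 and control under the alternatives except over replicates 1 and 2 alone, where 1 (ATF3) was called, as it was with voom on the recovered reads of replicates 1 and 2. The replicate block, which pairs libraries by their labelled number, left 0 members called on FPKM and 0 with voom. The members' median log2 difference was 0.0135 with TPM scaling, 0.0073 with quantile normalization, 0.008 over replicates 1 and 2 alone and 0.0047 there with voom, and it ran from -0.0363 to 0.0021 with each library left out, against -0.02 in the report. MDM4 itself passed the test at a log2 difference of 4.33 with the replicate block, 4.78 over replicates 1 and 2, 4.44 with voom and the block and 4.8 with voom over replicates 1 and 2, and it ran from 4.035 to 4.905 with a library left out, passing without control replicate 3 and without MDM4 replicate 3. In replicate 3 against replicates 1 and 2, 10 members were called, 6 without the trend, 0 with an absolute log2 difference over 1 and 2 to 12 with a library left out, and the median of 0.02 became -0.0855 with median ratio scaling, 0.042 with quantile normalization and 0.0017 to 0.0367 with a library left out. The causes were not tested, beyond the smaller number of libraries where some were left out. The difference of the MDM4 effect called 0 members in each of 14 alternatives, and leaving out either replicate 3 library gave no such fit. Over single members, no called value changed its sign. Among 511 values of the replicate 3 comparison, 29 were no longer called and 8 newly called, and among 607 of the MDM4 comparison, 2 were newly called, both of ATF3. Depth limited DERL3, with 39 to 82 reads, and CHAC1, with 177 to 295. With 3 libraries per group the smallest p an exact permutation test can give is 0.1, and 1 library of each group carries the replicate 3 contrast.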

Other observations

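Heat shock genes of chaperones outside the ER were called in replicate 3 for 2 of 9 listed genes, beside 44.1% of all tested genes. The list held cytosolic chaperones and the mitochondrial HSPD1 and HSPE1. HSPA8, the constitutive cytosolic HSP70, measured 1274, 1335 and 913 FPKM in the control libraries against 1301, 1319 and 885 in the MDM4 libraries, a log2 difference of -0.54 in limma with an adjusted p of 1.58e-05. HSPB1, a small heat shock protein, measured 267, 218 and 312 FPKM in the control libraries against 207, 229 and 267 in the MDM4 libraries, a difference of 0.33 with an adjusted p of 0.00519 in limma. They are named after a look at their values.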
